A study of Homo sapiens with 15 samples.

Results

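The genes described here are the regulators of the transcription factor NRF2, the genes that NRF2 is known to switch on, and the enzymes that remove superoxide and peroxides from cells. They were given as a list of 36 gene symbols, with no threshold on any measured value, and 35 of the 36 had a row among the 19143 rows of the count table. GPX1 is not analysed here. By role, the 35 fall into 6 regulators, 3 genes of glutathione synthesis and reduction, 10 of the thioredoxin and peroxiredoxin system, 5 peroxidases, dismutase and catalase, 6 of quinone, haem, NADPH and detoxification metabolism, and 5 aldo-keto reductases.

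As background, NRF2, the product of NFE2L2, is held in the cytoplasm by KEAP1, which hands it to a CUL3 ubiquitin ligase for destruction. Oxidants and electrophiles modify KEAP1, NRF2 then escapes, pairs with a small MAF protein (MAFF or MAFG among them) and binds the antioxidant response element of its target genes, a site that the repressor BACH1 can occupy instead. SQSTM1, the autophagy receptor p62, binds KEAP1 and can take it away from NRF2. In liver cells the pathway controls glutathione synthesis, the thioredoxin system, NADPH supply and the detoxification of quinones and aldehydes, and in liver cancer it is often active. NRF2 is controlled mainly at the protein level, and no protein was measured in these libraries.

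The cells were MHCC-97H, a long-established line of human liver cancer (hepatocellular carcinoma), and RNA sequencing read counts were available for 15 libraries of 5 groups with n = 3 each. In the first round the cells were in a 2D model, in a 3D model or in an animal model. In the second, an additional round per the series design, cells in the 3D model were either an untreated treatment control or given a heat treatment. The labels give no temperature, duration, culture matrix or host animal. They number the libraries as biological replicates without saying that these were separate cultures or animals, so p-values measure the spread between libraries, and all groups stand for 1 cell line. The design text asks what a 3D environment gives the cells and what heat changes in it. In 2D the epithelial keratins KRT8 and KRT18 averaged 3028 and 700.2 CPM (counts scaled to a common library size), while the liver markers ALB, AFP and GPC3 averaged 2.37, 2.02 and 0.0892 CPM.

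The antioxidant response element has the core TGACNNNGC. These letters were searched on both strands of RefSeq promoter windows (GRCh38.p14) from 250 bases before to 50 bases after each gene's start. Of the 29 members with a window, 7 held them (24.1%), against 18% of the 14693 genes of the count table with a window and 16.1% of all 27305 genes. A gene with several windows was counted if any of them held the letters. By window the shares were 17.8% of the members' 45 and 13.8% of the 20794 of genes in the count table. The 7 were TXNRD1, GCLM, ME1, MAFF, GPX2, EPHX1 and KEAP1. AKR1B10, GSR, HMOX1, PRDX1, PRDX6 and SOD1 had no window. Below are the stretches from 150 bases before to 10 bases after the start for 4 members with a match, picked for how they moved in the 3D libraries. TXNRD1, GCLM and ME1 fell there with all libraries and MAFF rose. After a correction for transcript GC and length GCLM and ME1 were not called. Of the members with a match not shown, with all libraries GPX2 also rose and edgeR called neither EPHX1 nor KEAP1. Each reads 5′ to 3′ on the gene's strand, and capitals mark a match in either orientation.
TXNRD1, chr12:104215629-104215788, plus strand: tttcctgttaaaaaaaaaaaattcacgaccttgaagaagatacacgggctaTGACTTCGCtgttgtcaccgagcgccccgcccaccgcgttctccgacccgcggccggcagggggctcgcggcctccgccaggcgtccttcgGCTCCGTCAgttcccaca
TXNRD1, other start, chr12:104286882-104287041, plus strand: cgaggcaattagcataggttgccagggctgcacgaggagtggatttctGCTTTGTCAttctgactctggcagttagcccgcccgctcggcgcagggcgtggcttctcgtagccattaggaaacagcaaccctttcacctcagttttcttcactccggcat
GCLM, chr1:93909421-93909580, minus strand: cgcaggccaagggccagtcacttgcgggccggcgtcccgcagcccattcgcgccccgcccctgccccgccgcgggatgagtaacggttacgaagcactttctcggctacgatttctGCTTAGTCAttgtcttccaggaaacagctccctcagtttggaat
ME1, chr6:83431042-83431201, minus strand: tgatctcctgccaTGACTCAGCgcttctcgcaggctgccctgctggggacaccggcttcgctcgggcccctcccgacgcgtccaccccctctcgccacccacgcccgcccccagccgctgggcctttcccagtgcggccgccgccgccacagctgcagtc
MAFF, chr22:38201844-38202003, plus strand: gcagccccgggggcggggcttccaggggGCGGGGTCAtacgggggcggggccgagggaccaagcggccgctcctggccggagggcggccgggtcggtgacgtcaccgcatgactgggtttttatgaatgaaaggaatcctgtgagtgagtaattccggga
The matches began 99 and 8 bases before the first TXNRD1 start, 102 before its other start, 34 before the GCLM start, 137 before the ME1 start and 122 before the MAFF start shown. The window of another MAFF start held no match. A second ME1 match, 11 bases after the start, lies outside the printed stretch. The printed ME1 match overlaps the AP-1 letters TGACTCA, and the printed matches of the other 3 genes do not. A match describes the letters of the window and is not evidence of a bound site.

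Total counts were 12605539 to 18634295 per library. Among the 15 libraries 3 stood apart in composition: both 3D replicates 1 and 2, and the first heated library. For these, the departure of gene levels from 2D had a rank correlation with transcript GC content, over genes, of 0.709, 0.796 and 0.595, against -0.193 to 0.231 in the other 12 libraries. Among the 35 members, which share these libraries and their depth, 24 were higher and 8 lower in both 3D replicates 1 and 2 than in 3D replicate 3, against 43.0% and 46.6% of all genes, and the size of that gap had a rank correlation of 0.55 with GC content and -0.50 with transcript length. In heat replicate 1, 23 members were higher and 9 lower than in both other heated libraries (background 41.3% and 44.9%), with rank correlations of 0.58 and -0.70. Results on the members that use these libraries are therefore given with and without them. When 3D replicates 1 and 2 (the pair, below) are left out, the 3D group is 1 library, which is then assumed to vary like the other groups.

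**Figure D1:**
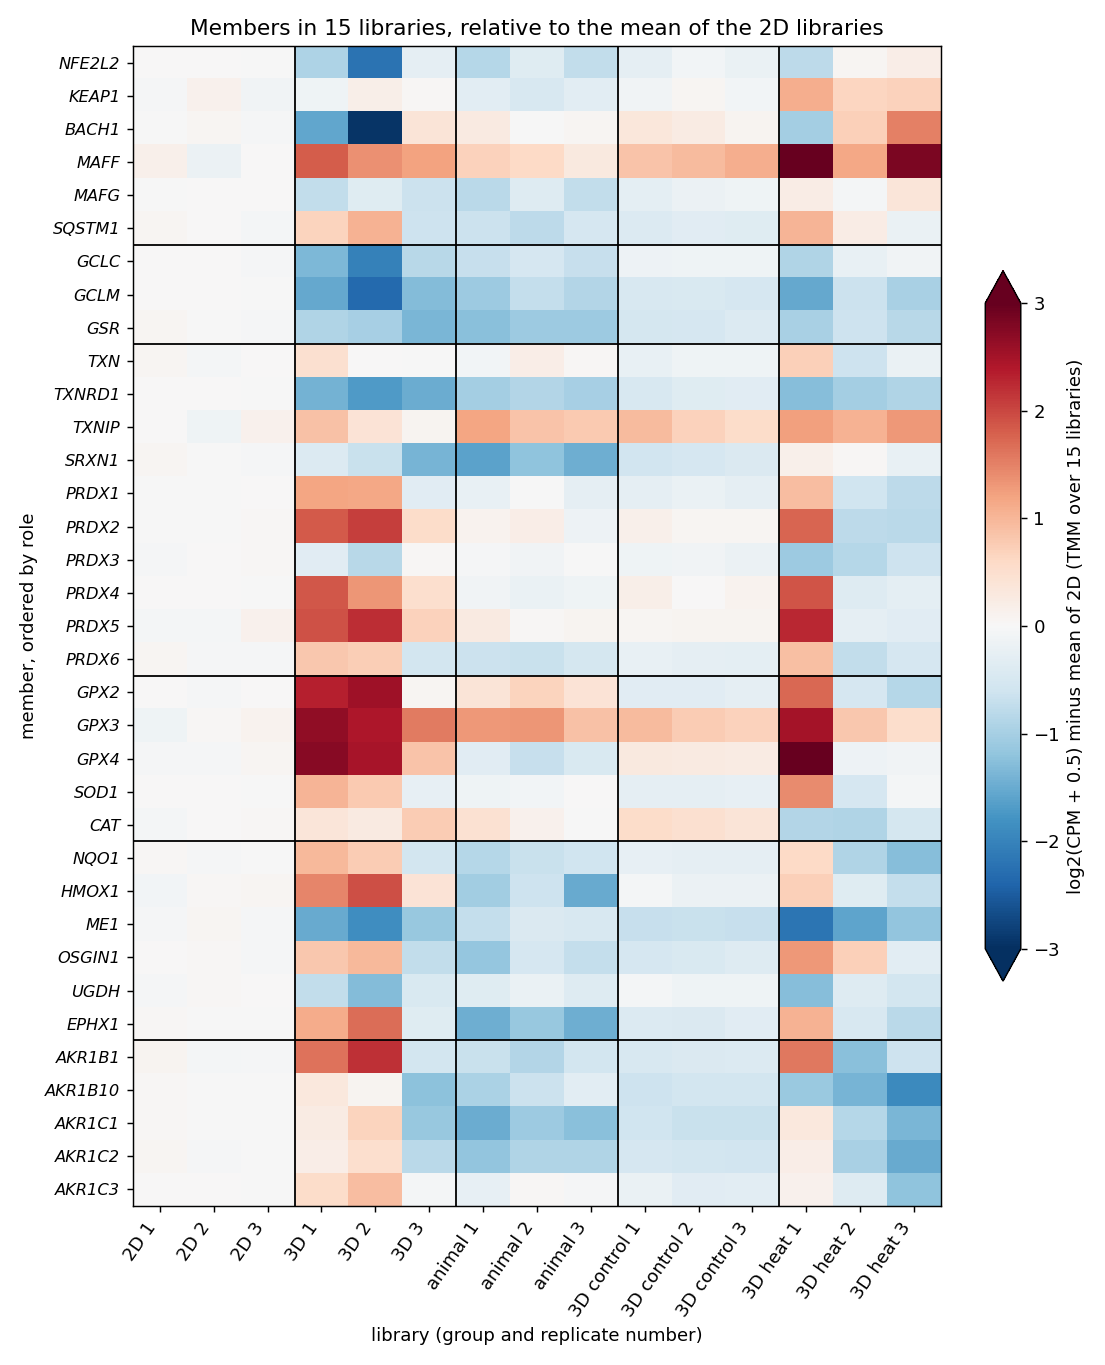
Level of the 35 members in each of the 15 libraries as log2(CPM + 0.5) minus the mean of the 3 libraries in 2D, scaled over all 15 libraries. Rows are ordered by role and columns by group. The 3D 1, 3D 2 and 3D heat 1 columns are darker than their neighbours, with PRDX2, PRDX4, PRDX5, GPX2, GPX3 and GPX4 high in all 3, while GCLC, GCLM, TXNRD1 and ME1 are below 2D in all 3D and animal columns.

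The first question was what the 3D model changed. In the 3D libraries the genes of glutathione synthesis and reduction (GCLC, GCLM and GSR), the thioredoxin reductase TXNRD1 and the NADPH-producing malic enzyme ME1 fell to between 1.81-fold and 2.81-fold below 2D when 3D replicate 3 stood alone, and to between 2.17-fold and 3.25-fold below with all 3 libraries. The glutathione peroxidases GPX3 and GPX4, the peroxiredoxins PRDX2, PRDX4 and PRDX5 and the small MAF gene MAFF rose in both fits. In all, 8 of 35 members rose and 8 fell (adjusted p below 0.05, edgeR's quasi-likelihood test), where 20.0% of the 12925 genes tested rose and 12.9% fell. The groups did not overlap for 9 members that were higher and 9 that were lower, against 24.5% and 25.6% of all genes. The median log2 fold change of the members was 0.45, against 0.03 over all genes. With the pair left out the counts were 8 higher and 17 lower, the background 22.9% and 23.6%, and the members' median -0.35, against 0.01 over all genes.

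Among the regulators, NFE2L2 measured 109, 109 and 108 CPM in 2D and 54.9, 22.1 and 89.9 CPM in 3D. All 3D libraries were below all 2D libraries, but replicates 1 and 2 were much lower than replicate 3, and the difference did not pass (log2 fold change -0.97 ± 0.42 SE, adjusted p = 0.105, and -0.28 with 0.225 without replicates 1 and 2). KEAP1 averaged 13.6 CPM in both groups. MAFF, a small MAF protein without a transactivation domain, measured 12.9, 10.2 and 11.7 CPM in 2D and 40.5, 29.3 and 27.4 CPM in 3D. Every 3D library lay more than 2-fold above every 2D library, and MAFF rose 2.78-fold with all libraries (adjusted p = 0.00337) and 2.34-fold without the pair (0.00145). After a correction for transcript GC and length its log2 fold change went from 1.48 to 0.79 (0.0318). Its relative MAFG measured 161, 162 and 163 CPM in 2D and 92.7, 120.2 and 103 CPM in 3D, and fell 1.53-fold (adjusted p = 0.0330). MAFG lay lower in all 3 libraries, and its call ended on leaving out 3D replicate 1 or any 2D library (adjusted p 0.101 to 0.11) and under median-ratio scaling (0.0714). The repressor BACH1 was at 12.9, 4.54 and 52.6 CPM in 3D against 39.4 to 41.6 CPM in 2D, so that its 3D libraries lay on both sides of 2D. SQSTM1 did the opposite, at 1930.1, 2460.4 and 819 CPM against 1198 to 1289.5.

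The 3 glutathione genes lay below 2D in every 3D library. GCLC, the catalytic subunit of glutamate-cysteine ligase, which makes the first and limiting bond of glutathione, measured 115, 114 and 111 CPM in 2D and 42.7, 26.0 and 63.1 CPM in 3D. Its modifier subunit GCLM measured 470.4, 472 and 464 CPM in 2D and 156, 88.0 and 189 CPM in 3D. GSR, the reductase that regenerates glutathione, measured 524, 502 and 498 CPM in 2D and 262, 244 and 196 CPM in 3D. The 2D libraries of each gene spread little, and the nearest 3D library stood well below them. GCLC fell 2.57-fold (adjusted p = 0.00940), GCLM 3.25-fold (0.00348) and GSR 2.17-fold (0.00285), and without the pair they fell 1.81-fold (0.000643), 2.50-fold (0.000391) and 2.61-fold (0.000117). After the GC and length correction GCLC and GSR kept their calls, at log2 fold changes of -0.75 and -0.88 (0.00219 and 0.00289), and GCLM did not (log2 fold change -0.14, adjusted p = 0.772).

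In the thioredoxin system the reductase fell, while the peroxiredoxins differed among themselves. TXNRD1 measured 4140.0, 4129 and 4123 CPM in 2D and 1503, 1202 and 1482 CPM in 3D. The 3 libraries in 3D were close to each other, including those that stand apart, and all lay far below the 2D range. It fell 2.96-fold (adjusted p = 0.00108) and 2.81-fold without the pair (9.17e-05), and kept its call under all 14 alternatives, although its log2 fold change went from -1.57 to -0.74 after the GC and length correction (0.0223). TXN, its substrate thioredoxin, averaged 867 CPM in 3D and 787 CPM in 2D, with overlapping groups. SRXN1, sulfiredoxin, which repairs overoxidised peroxiredoxins, measured 683, 646 and 644 CPM in 2D and 477, 397 and 249 CPM in 3D. The lowest SRXN1 library was the third, and the fall was 1.76-fold (adjusted p = 0.0338), or 2.66-fold without the pair (0.000428). Its call ended on leaving out 3D replicate 2 or any 2D library (0.0535 to 0.103) and under median-ratio scaling (0.0696).

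Of the 6 peroxiredoxins, thiol peroxidases that reduce hydrogen peroxide, 3 rose. PRDX2 measured 103, 103 and 107 CPM in 2D and 365, 423 and 153 CPM in 3D. PRDX4, the peroxiredoxin of the endoplasmic reticulum, measured 56.5, 57.4 and 56.1 CPM in 2D and 201, 137 and 80.8 CPM in 3D. PRDX5 measured 109.7, 109 and 124 CPM in 2D and 415, 508 and 186 CPM in 3D. In all 3 genes the libraries that stand apart were the highest, and replicate 3 still lay above 2D. The rises were 3.00-fold, 2.46-fold and 3.24-fold with all libraries (adjusted p = 0.00913, 0.0117 and 0.00653) and 1.46-fold, 1.41-fold and 1.62-fold without the pair (0.0105, 0.00261 and 0.00226). After the GC and length correction PRDX4 kept its call (0.0114), and PRDX2 and PRDX5 did not (0.107 and 0.170). PRDX4 lost it on leaving out any 2D library (0.052 to 0.053). PRDX1 and PRDX6 were above 2D in 3D replicates 1 and 2 and below it in replicate 3. Without the pair their log2 fold changes were -0.35 and -0.55. The mitochondrial PRDX3 averaged 126 CPM in 3D and 162 CPM in 2D, with overlapping groups.

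GPX3, the secreted glutathione peroxidase, measured 19.4, 22.0 and 23.4 CPM in 2D and 134, 112 and 64.6 CPM in 3D. GPX4, which reduces lipid peroxides and restrains ferroptosis, measured 643, 637 and 687 CPM in 2D and 4246, 3494 and 1192 CPM in 3D. GPX2, a glutathione peroxidase of epithelia, measured 485, 466 and 487 CPM in 2D and 2349.6, 2655 and 505 CPM in 3D. The third 3D library was clearly above 2D for GPX3 and GPX4 and just above it for GPX2. GPX3 rose 4.78-fold (adjusted p = 0.00161) and GPX4 4.54-fold (0.00594), or 2.97-fold (0.000409) and 1.80-fold (0.00134) without the pair, and both kept their calls under all 14 alternatives. After the GC and length correction the log2 fold change went from 2.26 to 1.52 for GPX3 (0.000481) and from 2.18 to 0.62 for GPX4 (0.0130). GPX2 rose 3.83-fold (0.0196) with all libraries, but was 1.04-fold higher without the pair (0.707), and it also lost its call on leaving out any single library of 2D, 3D replicate 1 or 3D replicate 2 (0.0513 to 0.0743) and after the correction (0.0531). Catalase, CAT, averaged 112 CPM in 3D and 82.1 CPM in 2D without overlap (adjusted p = 0.120), and it was called higher without the pair, at 1.70-fold (0.00537). The cytosolic dismutase SOD1 was not called in either fit (0.137 and 0.0526).

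In the last group of enzymes ME1, which makes NADPH from malate, measured 199, 214 and 201 CPM in 2D and 69.1, 53.4 and 93.8 CPM in 3D. All 3D libraries lay far below the lowest 2D library, and ME1 fell 2.84-fold (adjusted p = 0.00262) and 2.20-fold without the pair (0.000469), although not after the GC and length correction (0.367). UGDH, which makes the UDP-glucuronate used in conjugation, measured 560.2, 583 and 574 CPM in 2D and 331, 222 and 417 CPM in 3D. It was lower in each library and fell 1.77-fold (0.0251), or 1.38-fold without the pair (0.00576), and its call ended on leaving out 3D replicate 1 or any 2D library (0.0685 to 0.0834) and after the correction (0.508). HMOX1, haem oxygenase, measured 162, 175 and 178 CPM in 2D and 459.9, 623 and 231 CPM in 3D. Replicate 3 was above 2D by less than the others, and the rise of 2.55-fold (0.0210) was lost without the pair (1.33-fold, 0.245), on leaving out either of them or any 2D library (0.0535 to 0.0797) and after the correction (0.118). Fitted on the 2 groups alone, MAFG, SRXN1, UGDH, GPX2 and HMOX1 also missed the threshold (0.0501 to 0.0993).

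Several classical NRF2 targets lay on opposite sides of 2D in the 3 libraries from the 3D model. For 11 of 35 members both 3D replicates 1 and 2 were above every 2D library and replicate 3 below every 2D library, where 12.9% of all genes tested had that pattern. These were NQO1, the quinone reductase most used as a readout of NRF2, with AKR1B1, AKR1C1, AKR1C2, AKR1C3, OSGIN1, EPHX1, SQSTM1, PRDX1, PRDX6 and SOD1. NQO1 measured 2093, 1790.1 and 760.2 CPM in 3D against 1071 to 1133 CPM in 2D, and AKR1B1, aldose reductase, 1674, 2409 and 384 CPM against 539 to 591. edgeR called none of the 11 with all libraries, with adjusted p of 0.0643 for AKR1B1 to 0.963 for AKR1C2. DESeq2 called AKR1B1 and EPHX1 of these higher with all libraries, as it did CAT. Without the pair NQO1 was 1.46-fold lower (0.00775), AKR1B1 1.46-fold lower (0.0143), AKR1C1 2.21-fold lower (0.000767) and AKR1C2 1.75-fold lower (0.00205). AKR1B10, an aldo-keto reductase often raised in liver cancer, was 2.35-fold lower in the same fit (0.00410). These 5 calls rest on 1 library in 3D. Among markers of other cells, 3 of the 5 macrophage and leukocyte markers tested were higher in 3D (summed level 392 to 475 CPM against 103 to 109). Nearly all of that sum was CD68, a lysosomal protein that the 2D cells also expressed, at 449, 453 and 378 CPM in 3D and 97.9 to 103 CPM in 2D, while PTPRC, LYZ, TYROBP, CD14 and CSF1R were below 1 CPM in every 2D and 3D library. Hepatocyte markers summed to 11.8 to 32.8 CPM against 32.6 to 36.4. Their part in the members' levels was not tested.

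**Figure D2:**
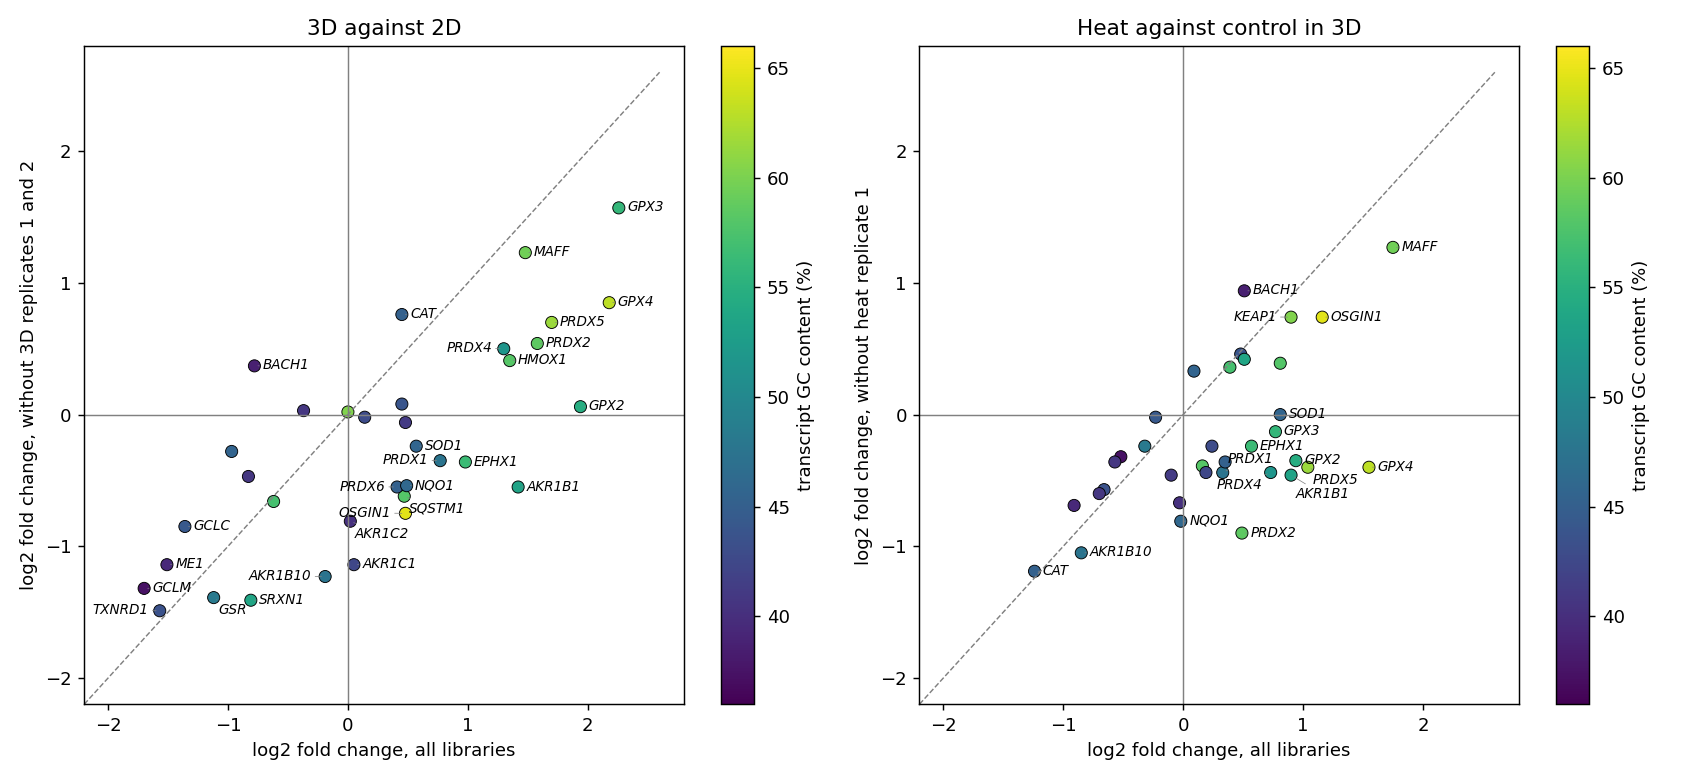
Log2 fold change of each of the 35 members with all libraries (horizontal) and without the libraries that stand apart (vertical), for 3D against 2D on the left and for heat against control on the right; colour gives transcript GC content in percent and the dashed line marks equal values. GPX2, AKR1B1, NQO1 and GPX4 sit far below the line on one or both sides, while TXNRD1, GSR, GCLM and ME1 stay at the lower left for 3D against 2D.

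The 3D treatment controls of the second round were also from the 3D model, and they are set beside 2D here as values only, because round and group cannot be told apart between the rounds. On a scale over all 15 libraries, every 3D control library lay below every 2D library for 24 of 35 members (68.6%) and above for 7 (20.0%), where the shares of all genes were 33.1% and 32.2%. For 3D replicate 3 the members' counts were 21 below and 10 above all 2D libraries, against 44.4% and 45.7% of genes. On the second round's own scale the 3D controls averaged 3128 ± 137 CPM for TXNRD1, 334 ± 5.78 for GCLM, 362 ± 17.1 for GSR and 126 ± 2.21 for ME1 (SD, n = 3). Each of these means lay between those of the 3D and the 2D libraries of the first round.

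**Figure D3:**
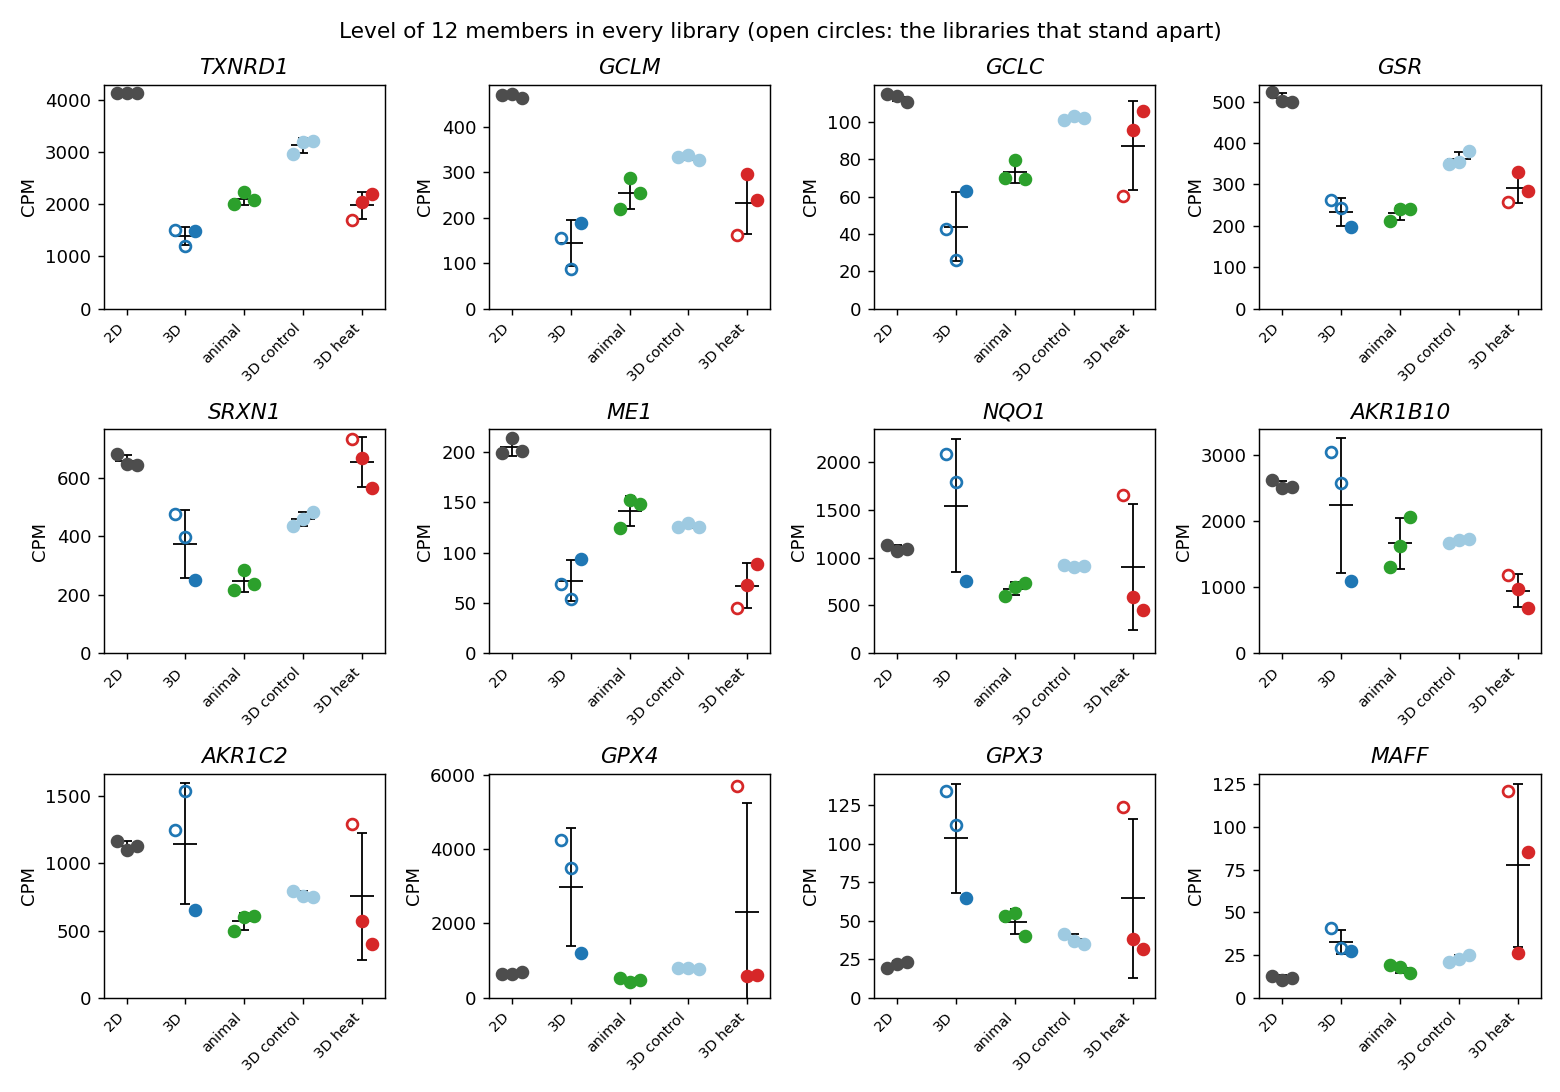
CPM of 12 members in every library, with the mean and SD of each group (n = 3 libraries; lower bars end at 0); open circles are 3D replicates 1 and 2 and heat replicate 1, and each round has its own scale. TXNRD1, GCLM, GCLC, GSR and ME1 were below 2D in every other library; NQO1, AKR1C2 and GPX4 had open circles far above the filled circles of the same group.

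The next question was how cells in the animal model differed from cells in 2D. GSR, TXNRD1 and SRXN1 fell, and TXNIP and GPX3 rose. These were the 5 members called, 2 higher and 3 lower, where 7.78% of the genes tested were higher and 4.25% lower. Most other members were lower without passing this test: all 3 animal libraries lay below all 3 libraries in 2D for 22 of 35 members and above for 4, against 32.6% and 33.8% of all genes, and the members' median log2 fold change was -0.53, against 0.03. This fit takes its error also from the 3D libraries. Once the pair was left out of the error estimate, the calls were 4 higher and 21 lower, with a background of 28.4% and 27.2% and a members' median of -0.55. Fitted on the 6 libraries of the 2 groups alone, they were again 4 and 21.

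GSR measured 212, 241 and 240.0 CPM in the animal libraries, against the 498 to 524 CPM in 2D, and fell 2.20-fold (adjusted p = 0.00367). TXNRD1 measured 2005, 2242 and 2083 CPM, against 4123 to 4140.0, and fell 1.96-fold (0.00824). SRXN1 measured 215, 286 and 237 CPM, against 644 to 683, and fell 2.67-fold (0.00740). All 9 of these values were far below the 2D range, with little spread inside either group, and the 3 genes kept their calls under all 14 alternatives. TXNIP, which binds and inhibits thioredoxin and limits glucose uptake, measured 46.8, 37.8 and 35.9 CPM in the animal libraries and 20.5, 18.7 and 22.6 CPM in 2D. GPX3 measured 53.3, 54.9 and 39.9 CPM, against 19.4 to 23.4. Both were higher in 3 of 3 libraries, TXNIP by 1.95-fold (0.0320) and GPX3 by 2.28-fold (0.0255). TXNIP lost its call on leaving out any library of either group (0.0675 to 0.147), and GPX3 on leaving out any 2D library or animal replicate 1 or 2 (0.0792 to 0.12).

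Of the 20 members whose calls appeared without 3D replicates 1 and 2 in the error estimate, 18 were lower in all 3 animal libraries. The 18 include both glutamate-cysteine ligase subunits, with GCLM at 253 ± 33.8 CPM against 469 ± 4.30 in 2D (SD, n = 3; adjusted p = 0.0646, and 0.000223 in the second fit) and GCLC at 73.1 ± 5.70 against 113 ± 1.87 (0.201 and 0.000272). NFE2L2 itself averaged 69.8 ± 13.4 CPM against 109 ± 0.765 (0.383 and 0.00309), and KEAP1 10.4 ± 0.649 against 13.6 ± 1.27 (0.264 and 0.0188). All 6 genes of quinone, haem, NADPH and detoxification metabolism were among the 21, led by EPHX1, the microsomal epoxide hydrolase, at 143 ± 20.1 CPM against 362 ± 7.23 (0.0656 and 5.24e-05), and HMOX1 at 84.4 ± 25.5 against 172 ± 8.26 (0.101 and 0.00361). Of the aldo-keto reductases, AKR1C1 averaged 672 ± 91.2 CPM against 1619 ± 33.9 (0.0592 and 6.51e-05) and AKR1C2 568 ± 63.5 against 1133 ± 33.9 (0.0578 and 0.000101), while AKR1C3 differed little, at 511 ± 51.6 against 540.3 ± 1.63 (0.879 and 0.325). The peroxiredoxins PRDX1 to PRDX5, TXN, SOD1 and CAT were not called in either fit. MAFF and GPX2 were not called with all libraries (0.169 and 0.600) and were called higher in the second fit (0.0138 and 0.00297).

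**Figure D4:**
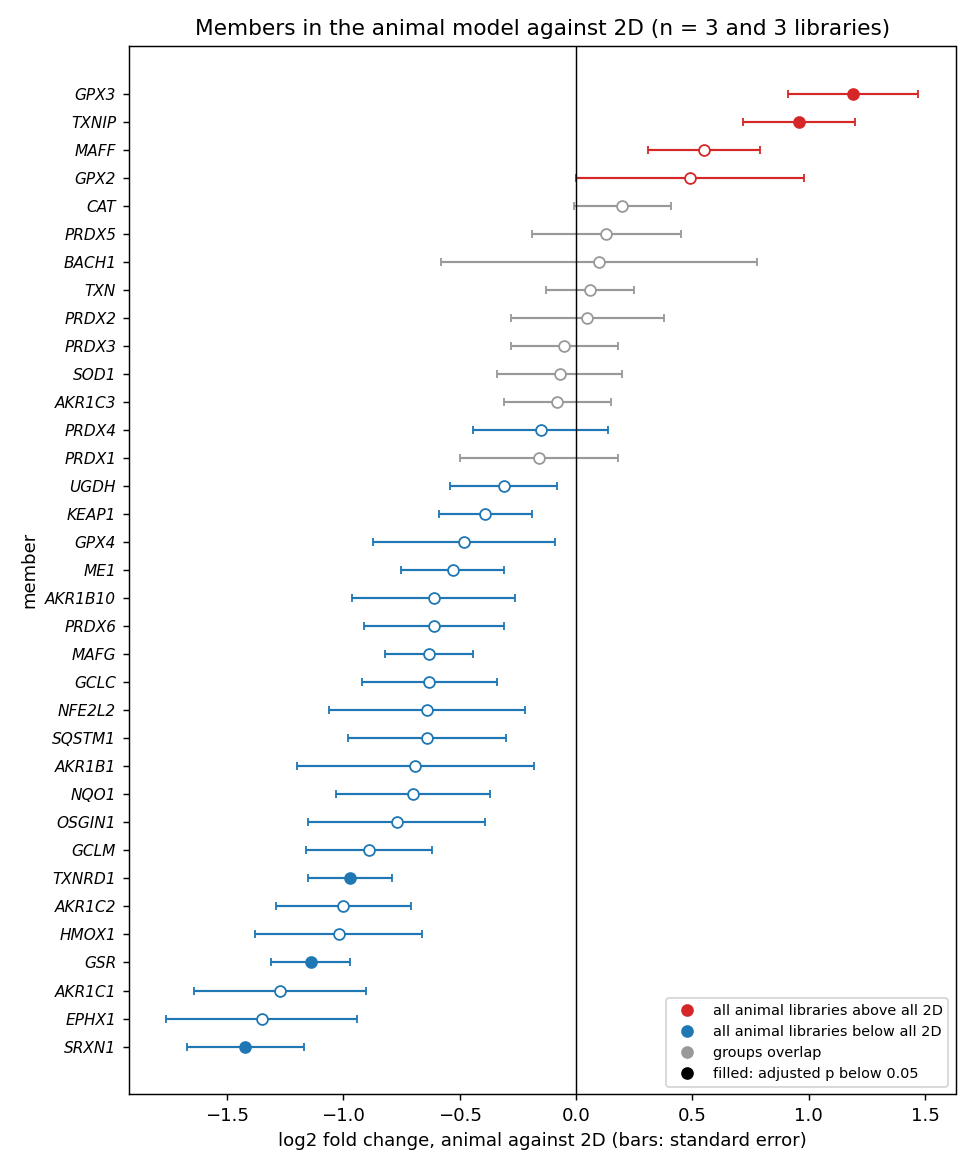
Log2 fold change of each of the 35 members in the animal libraries against 2D, with its standard error (n = 3 libraries each); colour says whether all animal libraries lie above or below all 2D libraries, and filled points have an adjusted p below 0.05. SRXN1, GSR and TXNRD1 are filled on the lower side, GPX3 and TXNIP on the higher side, and 22 points are blue.

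Genes that mark other cells differed between the animal libraries and 2D. Of 7 hepatocyte markers 4 were higher and 1 lower than in 2D, with a summed level of 298 to 428 CPM against 32.6 to 36.4, most of it ALB and TF. Of 6 fibroblast and pericyte markers tested 5 were higher (summed level 164 to 465 CPM against 64.8 to 69.3). Of 5 macrophage and leukocyte markers tested 3 were higher, CD74, ITGAM and LYZ (summed level of the list 160.3 to 217 against 103 to 109, with TYROBP at 0 in the animal libraries and CSF1R in 2D). Most of that sum was CD68, which was not among the 3 and which the 2D cells also expressed. Both endothelial markers tested were higher (5.78 to 16.7 against 1.38 to 1.67, with EMCN at 0 in both). Their part in the members' levels was not tested. In such bulk libraries fewer cells of a type and less RNA per cell cannot be told apart. Whether host reads were removed is not given, so reads of human and host cells cannot be told apart here either. KRT8 and KRT18, the keratins of the cell line, averaged 2199 and 746 CPM in the animal libraries.

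Set against the 3D libraries, the animal libraries were lower for 16 members and higher for 3, where 22.9% of genes tested were lower and 18.6% higher. The groups did not overlap for 12 lower and 5 higher members (background 22.3% and 27.9%), and the members' median log2 fold change was -0.64, against 0.10. With the pair left out the counts were 8 lower and 5 higher, the background 22.5% and 24.6%, and the median -0.09, against 0.06. GPX4, HMOX1, EPHX1 and PRDX4 were the 4 members lower under all 14 alternatives, with log2 fold changes after the GC and length correction of -1.06, -1.45, -1.5 and -0.89. This comparison shares its libraries with the 2 above, so its calls are not independent of theirs.

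GPX4 measured 519, 410.4 and 479 CPM in the animal libraries, against 4246, 3494 and 1192 in 3D, which made it 6.34-fold lower (adjusted p = 0.00204) and 2.55-fold lower without the pair (0.000184). HMOX1 measured 82.5, 111 and 60.0 CPM, against 459.9, 623 and 231, and was 5.19-fold lower (0.00206), or 2.75-fold without the pair (0.00336). EPHX1 measured 131, 166 and 131 CPM, against 760.0, 1103 and 284, and was 5.02-fold lower (0.00366), or 2.00-fold without (0.000756). Even the lowest 3D library of each of these 3 genes was above the highest animal library. PRDX4 was 2.72-fold lower (0.00607), PRDX5 2.96-fold (0.00656) and PRDX2 2.89-fold (0.00804), and without the pair 1.58-fold (0.000724), 1.5-fold (0.00514) and 1.42-fold (0.0142). After the GC and length correction PRDX4 kept its call (0.00108), and PRDX5 and PRDX2 did not (0.489 and 0.0835). The animal levels of these peroxiredoxins, at 49.2 to 52.2 CPM for PRDX4, 118 to 137 for PRDX5 and 94.0 to 121 for PRDX2, were near those in 2D.

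AKR1B1 was 4.32-fold lower in the animal libraries than in 3D (adjusted p = 0.0141) and NQO1 2.28-fold lower (0.0205), but 1.12-fold and 1.13-fold without the pair (0.353 and 0.248), so these calls rest on 3D replicates 1 and 2. The same held for AKR1C1, AKR1C2, SQSTM1, OSGIN1, PRDX6 and GPX3, whose adjusted p without the pair was 0.108 to 0.880, and GPX2 turned from 2.74-fold lower (0.0429) to 1.32-fold higher (0.0319). MAFF was 1.90-fold lower (0.0144) and 1.61-fold without the pair (0.0188), although not after the correction (0.709). ME1 was 1.96-fold higher in the animal libraries (0.00967), GCLM 1.75-fold (0.0387) and TXNRD1 1.51-fold (0.0251), and 1.5-fold (0.00748), 1.33-fold (0.0417) and 1.42-fold (0.00435) without the pair. For each of these 3 the animal libraries lay between the 3D libraries and 2D. None of the 3 calls held after the GC and length correction, where all 3 had a negative sign (log2 fold change -0.37, -0.91 and -0.24).

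The second round asked what heat changed in the 3D model. With all 6 libraries none of the 35 members passed the test, in a comparison where 0.00792% of the 12627 genes tested were higher and 0.0158% lower. By edgeR 7 members had an unadjusted p below 0.05, as did 20.8% of all genes. DESeq2 called KEAP1 and MAFF higher and TXNRD1, PRDX3 and CAT lower, beside 851 higher and 690 lower among all genes. The groups did not overlap for 7 higher and 8 lower members (background 17.7% and 18.9%). Without heat replicate 1 edgeR called 3 members higher (KEAP1, BACH1 and SRXN1) and 12 lower, with a background of 14.0% and 14.8%, and the members' median log2 fold change went from 0.35 to -0.36, against 0.10 and 0.03 over all genes.

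The values below are for members whose heated and control libraries did not overlap, chosen after their values were seen. CAT, which breaks down hydrogen peroxide in peroxisomes, measured 119.8, 115 and 107 CPM in the controls and 44.4, 43.3 and 56.9 CPM after heat. Every heated library was far below the controls, including the one that stands apart (2.36-fold lower, adjusted p = 0.0904, and 2.28-fold with 0.00830 without heat replicate 1). KEAP1, the sensor that holds NRF2 back, measured 12.5, 14.0 and 12.6 CPM in the controls and 29.3, 21.5 and 22.3 CPM after heat, higher in 3 of 3 libraries (1.86-fold, 0.130, and 1.67-fold with 0.0158). MAFF measured 21.1, 22.7 and 25.1 CPM in the controls and 121, 26.4 and 85.1 CPM after heat. The heated MAFF libraries differed widely, the second lying just above the controls (3.37-fold higher, 0.149, and 2.41-fold with 0.0821). Without heat replicate 2, MAFF was called higher (0.0267) and CAT lower.

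TXNRD1 measured 2969, 3199 and 3216 CPM in the controls and 1699, 2049 and 2190.2 CPM after heat (1.58-fold lower, adjusted p = 0.310, and 1.48-fold with 0.0191 without heat replicate 1). ME1 measured 125, 129 and 125 CPM in the controls and 44.6, 67.9 and 89.1 CPM after heat (1.88-fold lower, 0.172, and 1.61-fold with 0.0229). PRDX3 measured 149, 151 and 143 CPM in the controls and 76.6, 89.6 and 106 CPM after heat (1.63-fold lower, 0.174, and 1.51-fold with 0.0203). All 9 heated values were below the controls for these 3 genes. AKR1B10 measured 1656, 1706 and 1720.1 CPM in the controls and 1177, 963 and 682 CPM after heat, again lower in each library (1.80-fold, 0.236, and 2.06-fold with 0.0143). SRXN1 was on the other side, at 436, 459 and 482 CPM in the controls and 732, 667 and 564 CPM after heat (1.43-fold higher, 0.336, and 1.34-fold with 0.0483). OSGIN1, SQSTM1, MAFG and TXNIP were also above the controls in all 3 heated libraries, with adjusted p of 0.191 to 0.372 and, without heat replicate 1, 0.0771 to 0.117. GCLM, GSR and UGDH were below the controls in all 3, with adjusted p of 0.347 to 0.502, and 0.0546 to 0.166 without it.

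In 14 of 35 members (40.0%) heat replicate 1 lay above every control while heat replicates 2 and 3 lay below every control, a pattern shown by 10.9% of all genes tested. They were PRDX1, PRDX2, PRDX4, PRDX5, PRDX6, GPX2, GPX4, NQO1, HMOX1, EPHX1, AKR1B1, AKR1C1, AKR1C2 and AKR1C3. GPX4 measured 799, 785 and 777 CPM in the controls and 5705, 588 and 606 CPM after heat. NQO1 measured 928, 904 and 909.5 CPM in the controls and 1659.8, 586 and 455 CPM after heat. Both genes were several-fold apart within the heated group and lower than the controls in the other 2 heated libraries. Without heat replicate 1 NQO1 was 1.76-fold lower (adjusted p = 0.0159), GPX4 1.32-fold (0.0328), PRDX2 1.87-fold (0.00598) and AKR1C2 1.59-fold (0.0372). HMOX1 was 1.31-fold lower there and not called (0.0765). In the same fit 4 of 7 hepatocyte markers were lower (summed level 7.47 to 18.4 CPM over all heated libraries against 26.9 to 39.1 in the controls). So were 3 of the 5 liver cancer and simple epithelium markers tested (median log2 fold change -1.03), a list that holds KRT8 and KRT18. Macrophage and leukocyte markers summed to 244 to 524 CPM against 227 to 246, most of it CD68. LYZ and TYROBP were at 0 after heat. Their part in the members' levels was not tested.

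Per kilobase of transcript, which allows genes to be compared, the highest mean levels in 2D were those of AKR1B10 at 1598 CPM per kb, TXNRD1 at 1051, TXN at 906, GPX4 at 714 and GPX2 at 484. Of the regulators SQSTM1 was at 419 CPM per kb, and the others were among the lowest members. KEAP1 was at 4.61 CPM per kb, MAFF at 4.67, BACH1 at 6.97, MAFG at 32.1 and NFE2L2 at 38.1. In the animal libraries AKR1B10 (1044), TXN (942) and GPX2 (678) led, followed by TXNRD1 (537) and GPX4 (511), and in the 3D controls AKR1B10 (1065), GPX4 (857), TXN (810.4) and TXNRD1 (796). AKR1C1 and AKR1C2, whose transcripts share much sequence, were left out of this order.

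As a description over the 12 libraries that do not stand apart, which share groups and depth, the highest Pearson's r of log2 CPM was between NQO1 and AKR1C2 (r 0.97, Spearman's rho 0.99), followed by GCLM with GSR (0.96 and 0.95), GCLM with TXNRD1 (0.96 and 0.92), GSR with TXNRD1 (0.95 and 0.95) and AKR1C1 with AKR1C2 (0.95 and 0.92), which share sequence. With all 15 libraries Pearson's r of these pairs was 0.95, 0.77, 0.95, 0.88 and 0.97. By Spearman's rho SRXN1 with OSGIN1 stood second (rho 0.97, r 0.85). GCLM with AKR1C1, a pair chosen after its values were seen, went from 0.94 over the 12 to -0.18 over the 15.

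Other genes of the pathway were taken from lists that held no member. Of 25 other NRF2 targets 7 rose and 1 fell in 3D with all libraries, where 20.0% of all genes rose and 12.9% fell, and 2 and 11 without the pair (22.9% and 23.6%). PIR, an iron-binding nuclear protein, rose 2.58-fold (adjusted p = 0.00216), and 2.29-fold without the pair (0.000480). ABCC3, an exporter of conjugates, rose 1.85-fold (0.0107) and 2.09-fold (0.000681), and the aldehyde dehydrogenase ALDH3A1 3.54-fold (0.0108) but 1.51-fold without the pair (0.0745). SLC7A11, the cystine importer that feeds glutathione synthesis, fell 3.22-fold (0.0448) and 1.62-fold (0.00410), but not after the GC and length correction (0.0961). In the animal libraries against 2D, 3 of the 25 fell and none rose (background 4.25% and 7.78%), and without the pair in the error estimate 19 fell and 1 rose (27.2% and 28.4%). The 3 were PTGR1, a reductase of reactive aldehydes (2.29-fold, 0.00677), the glutathione conjugate exporter ABCC1 (2.06-fold, 0.00824) and the carboxylesterase CES1 (3.42-fold, 0.0161). With heat none of the 25 was called, and without heat replicate 1, 3 were higher and 10 lower (14.0% and 14.8%). Against 3D, 13 of the 25 were lower in the animal libraries and none higher (background 22.9% and 18.6%), or 11 and 5 without the pair (22.5% and 24.6%). CES1 was 7.53-fold lower (0.00117) and 4.70-fold without the pair (0.00259), ALDH3A1 8.76-fold (0.00126) and 3.78-fold (0.000568), and ABCC3 2.71-fold (0.00131) and 3.09-fold (0.000120).

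Of 14 other regulators of the pathway 2 rose and 4 fell in 3D (background 20.0% and 12.9%), and 3 and 7 without the pair (22.9% and 23.6%). CUL3, the ligase scaffold that KEAP1 works through, fell 2.70-fold (adjusted p = 0.0156) and 1.69-fold without the pair (0.00734), but its log2 fold change was 0.01 after the GC and length correction (0.984). FBXW11, which serves the second degradation route of NRF2, fell 2.14-fold (0.00876), or 1.68-fold without the pair (0.00191), and BACH2 3.30-fold (0.00420), or 2.75-fold (0.00255). SYVN1, a ubiquitin ligase of the endoplasmic reticulum, rose 1.69-fold (0.0158), or 1.34-fold without the pair (0.00686), and RBX1, the partner of CUL3, rose 2.20-fold (0.0202) but not without the pair (0.0533). After the correction FBXW11 and SYVN1 were not called (0.0752 and 0.315). In the animal libraries against 2D, 1 of the 14 rose and 2 fell (background 7.78% and 4.25%), and 1 and 8 without the pair (28.4% and 27.2%). NFE2L3, a relative of NRF2, rose 4.29-fold, from 11.8 to 50.7 CPM (0.00481), BACH2 fell 2.58-fold (0.0165) and the coactivator CREBBP 1.65-fold (0.0169). With heat none was called, and without heat replicate 1 just 1 was, in the higher direction.

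Of 25 other antioxidant and repair enzymes, 23 of them tested in the first round, 6 rose and 2 fell in 3D (background 20.0% and 12.9%), and 5 and 7 without the pair (22.9% and 23.6%). CCS, which loads copper into SOD1, rose 3.09-fold (adjusted p = 0.00394), and 2.00-fold without the pair (0.00107), and the methionine sulfoxide reductase MSRB2 rose 2.94-fold (0.00695) and 1.66-fold (0.00852). The glutaredoxins GLRX3 and GLRX2 fell 1.78-fold (0.00898) and 2.10-fold (0.0447), and without the pair 2.10-fold (0.000216) and 1.34-fold (0.0457). After the GC and length correction CCS and GLRX3 were not called (0.0580 and 0.582). In the animal libraries against 2D, 2 rose and 2 fell (background 7.78% and 4.25%), and 4 and 8 without the pair (28.4% and 27.2%). SELENOP, a selenium transport protein made by hepatocytes, rose 10.2-fold, from 0.856 to 8.82 CPM (0.00157), beside the hepatocyte markers given above, and the mitochondrial dismutase SOD2 rose 1.88-fold (0.0124). SESN2, a stress-induced sestrin, fell 4.65-fold (0.00363) and the extracellular dismutase SOD3 6.63-fold (0.0119). With heat none was called, and without heat replicate 1, 1 was higher and 7 lower (14.0% and 14.8%).

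Some of these rows may hold reads of more than 1 gene. Of the 50-base windows of its representative transcript, AKR1C2 shared 50.8% with AKR1C1, AKR1C1 28.3% with AKR1C2, AKR1C3 9.61% with AKR1C2 and AKR1B10 11.6% with AKR1B15, and SRXN1 84.7% with a readthrough locus that has no row. No source used here gives the strand setting, so antisense overlaps can also mix: 50.7% of the SQSTM1 transcript lies opposite MRNIP, 33% of PRDX1 opposite MMACHC, and 21.4% of PRDX2 and 18.1% of NQO1 opposite genes that have no row. MRNIP measured 8.38 to 44.8 CPM over all libraries and MMACHC 5.09 to 11.0, far below SQSTM1 and PRDX1. The levels of these members are uncertain to that extent.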

How the data were processed

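Read counts of MHCC-97H cells were measured in 15 libraries of 5 groups. Per the labels' protocols, RNA was column-purified, cDNA was made from fragmented mRNA with random hexamers, and single-end reads of 50 bases were made from DNA nanoballs. Per the submitters' processing notes HISAT2 and hg19 were used, with no version given. The counting program, its strand setting, the annotation and whether host reads were removed are not given in the sources used here. The authors deposited raw counts per gene symbol, whole numbers with a different total in each library. In 27 rows a symbol had become a calendar date; these hold 0.168% of counts, were kept in the fits and are never named.

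Tests were run on these counts with edgeR 4.0.16 under R 4.3.3 (filterByExpr by group, TMM, robust quasi-likelihood fit with group as its only term), for the 9 libraries of the first round and, apart from them, the 6 of the second. All genes tested entered the Benjamini-Hochberg adjustment, and a gene was called at an adjusted p below 0.05. Adjusted p-values are edgeR's unless DESeq2 is named, and standard errors are the log2 fold change over the square root of F. CPM were computed with the TMM factors of each round. GC content and length came from a representative protein-coding GENCODE 29 transcript of each symbol, with a value for 99.1% of the tested genes. It was chosen by APPRIS principal rank, then by transcript support level, and by length only among equals. Total counts of 12605539 to 18634295 make a floor of 3 counts 0.145 to 0.287 CPM, which covers counting error only, and every member was above it in every library. Counts between replicates differed beyond sampling noise, so none was counted as a duplicate. Chi-squared per degree of freedom was 2.55 to 3.17 between 2D libraries and 2.85 to 8.03 between 3D controls. Between animal libraries it was 18.0 to 33.3, and between first-round 3D libraries 72.8 to 455. Such values cannot show whether the libraries of a group came from separate cultures or animals.

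Alternatives were DESeq2 1.42.0, no filter, upper-quartile or median-ratio scaling, the replicate number as a block, a GC and length correction (splines with 5 degrees of freedom), leaving out each replicate or 3D replicates 1 and 2, and the 2 groups alone. The fit of animal against 2D without 3D replicates 1 and 2 was added after seeing the data. The edgeR test was also run on simulated counts that held no shift by GC content or length. That simulation cannot speak for the libraries that stand apart. Every member is named; values in each library are given for called members whose groups do not overlap, up to 8 per direction, with a mean of at least 5 CPM, and up to 3 genes per direction are named from each other pathway list. One marker list is not reported here. The members and lists were chosen with earlier results of these data known.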

Additional observations from a re-analysis of the deposited data

How the results depend on the processing

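Over the 35 members and 4 comparisons, 1890 values under alternatives were set beside their main values. Of these 1610 kept their side of the threshold without a called value changing sign (86 of them uncalled in both, with the other sign), 136 lost the call, 120 gained one, and 24 reversed where at least 1 of the 2 values was called. Values below are counts of members called, then log2 fold changes. Without 3D replicates 1 and 2 members lower in 3D against 2D numbered 17 (8 with all libraries), animal against 2D had 4 higher and 21 lower (2 and 3), and animal against 3D 5 and 8 (3 and 16). Fitted on the 2 groups alone, 5 were lower in 3D against 2D, animal against 2D had 4 and 21, and animal against 3D 0 and 7. For animal against 2D, upper-quartile scaling gave 2 higher and 5 lower, the GC and length correction 7 lower and DESeq2 8 lower. For animal against 3D the correction gave 1 higher. For heat it gave 1 higher and 4 lower, and DESeq2 2 and 3. Leaving out each library in turn gave 5 to 19 members higher and 5 to 11 lower for 3D against 2D. The ranges were 0 to 1 and 3 to 3 for animal against 2D. For animal against 3D they were 1 to 8 and 7 to 21, and for heat 0 to 3 and 0 to 12. Without 3D replicate 3 the members called were 19 and 11 for 3D against 2D, beside 4560 and 4933 of all genes. For animal against 3D they were then 8 and 21, beside 5596 and 4536 of all genes. For heat they were 3 and 12 without heat replicate 1, beside 1795 and 1896 of all genes. Without heat replicate 2 they were 1 and 1, beside 585 and 460. The causes were not tested, other than that such fits have fewer libraries.

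Signs reversed for these members. With 3D replicates 1 and 2 left out, 3D against 2D: BACH1 0.37, SQSTM1 -0.62, PRDX1 -0.35, PRDX6 -0.55, NQO1 -0.54, OSGIN1 -0.75, AKR1B1 -0.55, AKR1C1 -1.14 and AKR1C2 -0.81, and animal against 3D GPX2 0.40. After the GC and length correction, 3D against 2D: OSGIN1 -0.68 and UGDH 0.17, and animal against 3D: MAFG 0.48, GCLM -0.91, TXNRD1 -0.24, PRDX3 -0.57, ME1 -0.37, OSGIN1 0.17 and UGDH -0.60. With heat, leaving out 1 library in turn gave PRDX1 -0.44 to 0.62, PRDX2 -0.90 to 0.89, PRDX4 -0.44 to 1.08, PRDX5 -0.40 to 1.44 and GPX4 -0.40 to 2.00, each lowest without heat replicate 1. The cause was not tested.

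Over all genes the main counts of higher and lower calls were 2586 and 1661 for 3D against 2D, 1006 and 549 for animal against 2D, 2406 and 2961 for animal against 3D, and 1 and 2 for heat. Without 3D replicates 1 and 2, 3205 were lower in 3D against 2D, and animal against 2D had 3865 and 3696. With the 2 groups alone the counts were 1695 and 798, 3751 and 3538, and 996 and 1750. Animal against 2D had 1990 and 1677 after the correction and 1007 lower by DESeq2, and heat had 752 and 691 and, by DESeq2, 851 and 690, and without filter 1 lower. Leaving out 1 library gave 1132 to 4560 and 663 to 4933, 446 to 768 and 199 to 386, 1377 to 5596 and 1943 to 4536, and 0 to 1795 and 0 to 1896. Upper-quartile scaling moved the median log2 fold change of all genes from 0.10 to 0.21 in animal against 3D and from 0.10 to -0.02 with heat; the members' medians there were -0.49 and 0.14.

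Deviations of same-numbered libraries of different groups had correlations of -0.225 to 0.141, against -0.250 to 0.300 for differently numbered ones. With 3 libraries per group, this cannot show whether the numbers mark a shared batch. With the replicate number as a block, members higher and lower were 8 and 6 for 3D against 2D, 0 and 3 for animal against 2D, 1 and 12 for animal against 3D and 0 and 0 for heat. MAFG (0.0522) and SRXN1 (0.0504) were then not called in 3D against 2D, nor TXNIP (0.0618) and GPX3 (0.0523) in animal against 2D, by edgeR's adjusted p. Under the block 322 genes in all were lower in animal against 2D, and 22 higher and 8 lower with heat.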
